A study of Mus musculus with 8 samples.

Results

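The nuclear genes of respiratory complexes I, II and III were followed in mouse embryonic stem cells with an induced knockout of Prmt5 and in their controls. The members were taken by gene symbol: the Nduf genes named with a letter a, b, c, s or v and a number, the 4 Sdh genes of complex II, and the 8 Uqcr genes of complex III, each averaging 1 FPKM or more in iPHet or in iPKO. FPKM counts sequenced fragments scaled to the length of the transcript and to the fragments of the library. This gave 48 genes, 36 of complex I, 4 of complex II and 8 of complex III, of 38991 gene identifiers in the files and of 12462 genes that entered the tests. All 48 genes with such a symbol passed the minimum. Ndufa4 carries a complex I name and is now assigned to complex IV. It is counted with complex I here because the name decided membership.

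The cells were C57BL/6 embryonic stem cells derived from blastocysts of embryonic day 3.5, in 4 libraries labelled iPHet and 4 labelled iPKO, each numbered 1 to 4. iPHet is the control and iPKO the Prmt5 knockout, and Prmt5 is the arginine methyltransferase of the spliceosomal Sm proteins. Cells of both genotypes had been derived on embryonic fibroblasts with 0.5 µM of the inhibitor PD0325901 and LIF, were kept below passage 20 in 2i ground state medium, and received 2 µM 4-hydroxytamoxifen for 48 hours, the agent that induces the deletion, followed by fresh medium. The male lines PC1 (iPHet) and PC4 (iPKO) served for most of the study's experiments, so genotype and line cannot be told apart, and the labels do not describe the alleles further. Separate cultures are not stated for the 4 libraries of a genotype. The p-values therefore cover only how far these libraries spread, and that spread may be technical.

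Complex I takes electrons from NADH in its N module, hands them to ubiquinone in its Q module, and pumps protons through a membrane arm. Complex II is succinate dehydrogenase, the only enzyme that belongs to both the citric acid cycle and the respiratory chain, and complex III passes electrons from ubiquinol to cytochrome c. The core of the membrane arm of complex I and the cytochrome b of complex III are encoded by mitochondrial DNA, so these complexes need products of both genomes, while complex II is wholly nuclear. Pluripotent stem cells rely much on glycolysis and respire as well, and nuclear respiratory genes are known targets of the factors NRF1, ETS-family GABP and YY1.

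The start regions of the members were read for the core letters of those factors. RefSeq promoters of build GRCm38.p6 (250 bases before to 50 bases after the gene start) were at hand for 40 of the 48 members and for 27025 genes in all, and both strands were searched. The YY1 core AAGATGGC stood in 7 members, 17.5% of the 40, against 3.19% of all promoters. The 30 bases around each of these matches are shown because all 7 take the same place, 23 to 39 bases after the start and on the strand of the gene, with the ATG of the capitals being the annotated start codon in 7 of 7. The promoters of all genes were counted whether or not a start codon lies within those 50 bases, and the part of this in the shares was not tested. Capitals mark AAGATGGC, and each sequence runs 5′ to 3′ on the strand of its gene.
Ndufa3 (chr7:3617384-3617413, plus strand): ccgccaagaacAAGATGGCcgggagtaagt
Ndufa9 (chr6:126849097-126849126, minus strand): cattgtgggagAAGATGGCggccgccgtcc
Ndufb8 (chr19:44555393-44555422, minus strand): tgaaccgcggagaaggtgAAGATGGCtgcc
Ndufc1 (chr3:51408915-51408944, minus strand): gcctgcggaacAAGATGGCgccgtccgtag
Ndufs4 (chr13:114388045-114388074, minus strand): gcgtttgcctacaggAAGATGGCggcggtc
Ndufs6 (chr13:73328433-73328462, minus strand): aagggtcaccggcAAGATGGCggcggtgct
Ndufs7 (chr10:80249462-80249491, plus strand): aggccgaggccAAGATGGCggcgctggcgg
All 7 are complex I genes. Of them, Ndufa9, Ndufs6 and Ndufs7 fell in iPKO in the test over 8 libraries, and Ndufa3, Ndufb8, Ndufc1 and Ndufs4 were not called. Over all 48 members 10.4% fell, and over all tested genes 9.53%. With libraries 1 and 3, and 2 and 4, of each genotype averaged, none of these genes was called. The limma adjusted p of Ndufa9, Ndufs6 and Ndufs7 was then 0.283 to 0.328. A link of the core to the falls was not tested.

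The NRF1 core GCATGCGC stood in 6 of the 40 members, 15.0%, against 3.05% of all promoters. These sites are shown because they occur in members of all 3 complexes. Capitals mark GCATGCGC. In Ndufa11 and Uqcrc1 the letters of the opposite strand overlap the site shown, since GCGCATGC and GCATGCGC share most of their letters.
Ndufa6 (chr15:82354356-82354385, minus strand): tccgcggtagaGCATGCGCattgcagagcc
Ndufa8 (chr2:36049328-36049357, minus strand): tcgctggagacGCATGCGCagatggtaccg
Ndufa11 (chr17:56717693-56717722, plus strand): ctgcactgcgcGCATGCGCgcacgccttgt
Sdhb (chr4:140961206-140961235, plus strand): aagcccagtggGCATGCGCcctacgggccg
Uqcr11 (chr10:80406807-80406836, minus strand): atcgccttcacGCATGCGCtatacgtctgc
Uqcrc1 (chr9:108936668-108936697, plus strand): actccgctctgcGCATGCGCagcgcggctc
None of these 6 genes was called in iPKO, where 15.8% of all tested genes were called in either direction. The ETS core CCGGAAG stood in 8 members, 20.0%, against 9.93% of all promoters. Sdhb and Uqcr11 hold both cores without overlap, and no member with AAGATGGC held either of the other cores. A match is a description of letters and not evidence of binding. The median GC content of the 250 bases before the start was 57.6% in the members and 52.4% in all promoters, and the part of base composition in these shares was not tested.

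For the 2 members with the smallest adjusted p, the 250 bases before the RefSeq start are given. Ndufb7 has 1 ETS core, in capitals, and Ndufv3 has none of the 3 motifs in its window. The window of Ndufb7 runs past the gene's first base in the deposited values, 83566671, and the ETS core lies after that base.
Ndufv3 (chr17:31519865-31520114, plus strand): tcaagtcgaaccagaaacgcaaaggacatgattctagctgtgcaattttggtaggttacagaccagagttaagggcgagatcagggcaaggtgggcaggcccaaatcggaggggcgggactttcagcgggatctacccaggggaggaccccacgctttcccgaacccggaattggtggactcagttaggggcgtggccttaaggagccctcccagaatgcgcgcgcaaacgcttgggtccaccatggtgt
Ndufb7 (chr8:83566508-83566757, plus strand): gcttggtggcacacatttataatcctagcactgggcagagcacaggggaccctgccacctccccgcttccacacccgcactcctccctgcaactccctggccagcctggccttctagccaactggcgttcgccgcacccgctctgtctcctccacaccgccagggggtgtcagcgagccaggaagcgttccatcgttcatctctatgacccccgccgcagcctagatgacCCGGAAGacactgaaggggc

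The targeted gene checked the labels. Prmt5 (ENSMUSG00000023110) had 52.8, 70.8, 54.3 and 72.2 FPKM in iPHet 1 to 4 and 11.8, 14.5, 12.4 and 15.0 FPKM in iPKO 1 to 4, and fell by 2.13 on the log2 scale (limma adjusted p = 0.000171). The summed FPKM of a library was 411827 to 458856, with 11640 to 12099 genes at 1 FPKM or above. Absolute depth is unknown, and relative depth ran from 0.745 in iPHet 3 to 1.25 in iPKO 1 with iPHet 1 set to 1. Embryonic stem cell markers summed to 1259 to 1612 FPKM, while the 8 fibroblast feeder markers summed to 1.11 to 2.53 FPKM, with Lum and Postn at 0 in all 8 libraries. Libraries 1 and 3 of a genotype resembled each other, as did libraries 2 and 4: the median absolute log2 difference over the members was 0.072 to 0.0924 within such pairs and 0.167 to 0.345 between odd-numbered and even-numbered libraries of a genotype. The labels do not say what the numbers stand for. The members are therefore also given for the odd-numbered and even-numbered libraries apart and with the pairs averaged.

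The 3 complexes were expressed at different levels per length of transcript. In iPHet the median over members was 46.4 FPKM for complex I, 81.3 FPKM for complex II and 123 FPKM for complex III. In iPKO these medians were 35.0, 80.0 and 109 FPKM. Complex I spanned the widest range. Its lowest member, Ndufa11, an accessory subunit of the membrane arm, had 3.92 ± 0.812 FPKM (SD, n = 4) in iPHet. Its highest by name, Ndufa4, now assigned to complex IV, had 337 ± 62.9 FPKM (SD, n = 4), 86.0-fold more. Ndufb8 of the distal arm had 175 ± 21.1 FPKM (SD, n = 4) in iPHet, so the range was the widest without Ndufa4 too. Members of complex II spanned 3.74-fold in iPHet and those of complex III 4.82-fold. For 16 members the deposited FPKM lay outside the authors' own confidence bounds in all 8 libraries, among them Ndufa4, Ndufa11, Ndufs3, Ndufs8, Sdhc, Uqcrc1, Uqcrfs1 and Uqcrb, which limits how far levels can be compared between genes.

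Over all 8 libraries, 5 of the 36 complex I genes fell in iPKO and none rose, while none of the 4 complex II or 8 complex III genes passed the test. The 5 were Ndufv3, Ndufb7, Ndufs7, Ndufa9 and Ndufs6, with falls of 0.28 to 0.61 on the log2 scale. The 5 are 10.4% of the 48 members, and 9.53% of all tested genes fell (15.8% were called in either direction, 6.3% as risen), so the share of members that fell was close to that of all genes. With each library divided by its median ratio to the others, 960 of the 1823 called genes rose, against 785 of 1973 as deposited. Without adjustment, 8 complex I and 2 complex III genes had a limma p under 0.05. The share of all tested genes under that unadjusted threshold is not given here, so these counts show no excess. The median log2 change was -0.11 in complex I, -0.04 in complex II and -0.13 in complex III, beside -0.04 over all tested genes. With that rescaling or with quantile normalization the complex II median was 0.00 and 0.03, so it has no stable sign. In these bulk samples, fewer cells with a transcript and less of it per cell cannot be told apart.

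**Figure D1:**
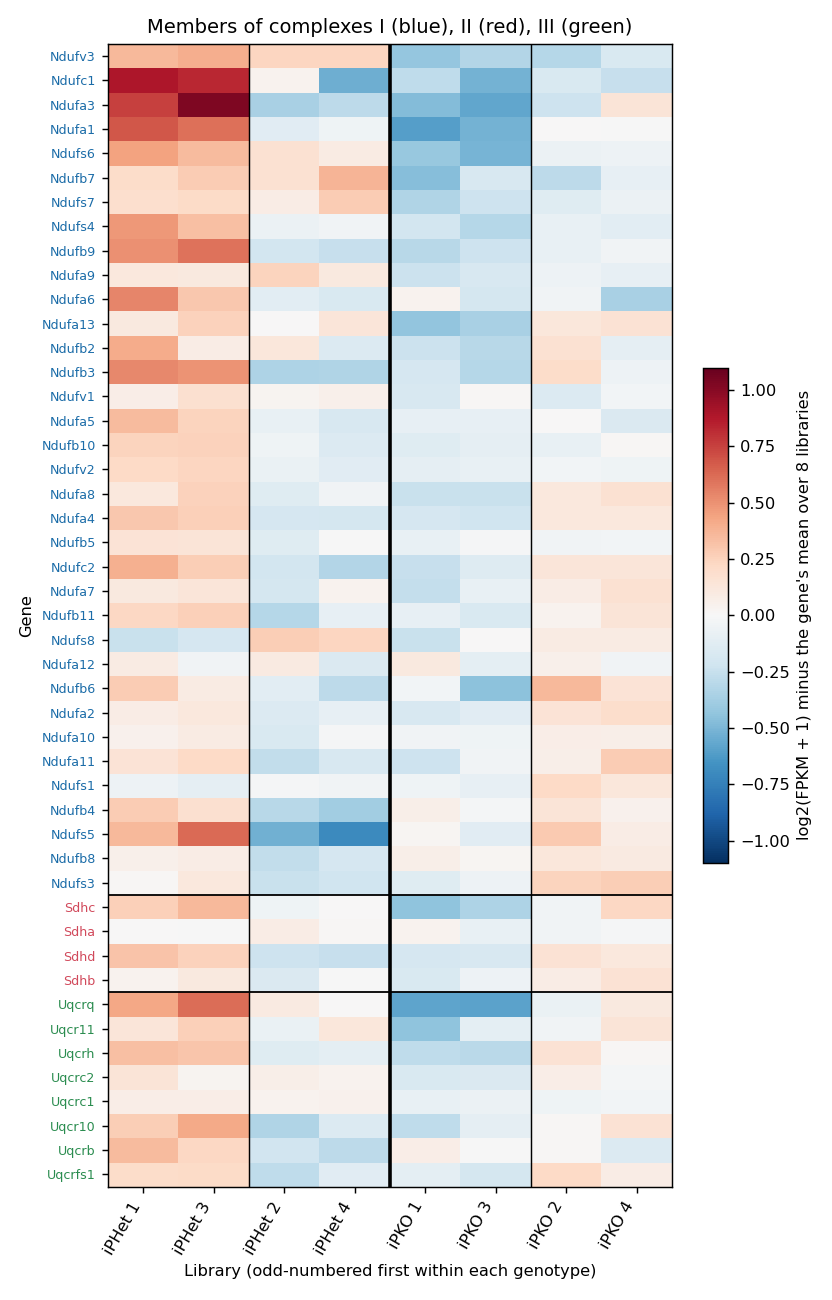
Deviation of members (rows, by complex) in each of the 8 libraries (columns) from each member's mean over libraries, on the log2(FPKM + 1) scale. The rows of Ndufv3, Ndufb7, Ndufs7 and Ndufa9 are low in all 4 iPKO libraries, while most other rows are high in iPHet 1 and 3 and low in iPHet 2 and 4 and in iPKO 1 and 3.

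In the N module, which oxidises NADH, 2 of 9 members fell, beside 9.53% of all tested genes. Ndufv3, a small accessory subunit of this module, had 34.0, 31.2, 35.1 and 31.3 FPKM in iPHet 1 to 4 and 19.4, 21.0, 20.8 and 23.4 FPKM in iPKO 1 to 4. Every iPKO library was below every iPHet library. It averaged 32.9 ± 1.97 FPKM in iPHet against 21.2 ± 1.66 FPKM in iPKO (both SD, n = 4). The exact two-sided permutation p was 0.0286, the smallest that 4 against 4 libraries can give. Every gene with groups apart gets this p, so it adds nothing to the separation. Over all tested genes 25.1% were apart in either direction. Ndufv3 fell by 0.61 on the log2 scale (SE 0.073, 95% interval -0.78 to -0.45, limma adjusted p = 0.00195). The difference was -0.75 in odd-numbered and -0.48 in even-numbered libraries. Ndufv3 lies on mm10 chr17:31520115-31531321.

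Ndufs6, a zinc-binding accessory subunit of the N module (mm10 chr13:73319874-73328542), had 48.5, 39.8, 45.3 and 37.6 FPKM in iPHet 1 to 4 and 26.2, 33.8, 24.4 and 33.9 FPKM in iPKO 1 to 4. The groups did not overlap, but the gap was wide only in the odd-numbered libraries. The fall of 0.53 on the log2 scale (SE 0.131, limma adjusted p = 0.0311) was -0.86 in odd-numbered and -0.19 in even-numbered libraries, and these differed (difference -0.67, limma adjusted p of the interaction = 0.00251). With the replicate number as a block the limma adjusted p was 0.066. It was also above the threshold without iPHet 1 (0.0755), iPHet 2 (0.0543), iPHet 3 (0.0766), iPKO 1 (0.0801) or iPKO 3 (0.0669).

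The core of the N module was not called. Ndufv1, which binds NADH and the flavin, had 47.6, 46.2, 51.1 and 47.1 FPKM in iPHet 1 to 4 and 39.7, 40.6, 45.5 and 44.2 FPKM in iPKO 1 to 4. All 4 iPKO libraries were below all 4 iPHet libraries by a narrow gap, with a log2 difference of -0.17 (95% interval -0.32 to -0.02, limma adjusted p = 0.109, and 0.0419 with the replicate number as a block). Ndufs1, the largest subunit and carrier of several iron-sulfur clusters, had a log2 difference of 0.11 (95% interval -0.07 to 0.29, limma adjusted p = 0.399). Ndufv2, which carries an iron-sulfur cluster beside Ndufv1, had a log2 difference of -0.13 (95% interval -0.34 to 0.09, limma adjusted p = 0.392). Reads of Ndufs1 could include those of the overlapping lincRNA Gm11602, since strand is not stated.

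In the Q module, where ubiquinone is reduced, 2 of 7 members fell, beside 9.53% of all tested genes. Ndufs7 (mm10 chr10:80249121-80256794), the core subunit that holds the last iron-sulfur cluster before ubiquinone, had 48.0, 44.7, 49.0 and 51.3 FPKM in iPHet 1 to 4 and 33.3, 38.4, 35.8 and 40.4 FPKM in iPKO 1 to 4. The groups were apart. Its mean went from 48.3 ± 2.73 to 37.0 ± 3.09 FPKM (SD, n = 4 each), 23.4% lower, a fall of 0.38 on the log2 scale (SE 0.075, limma adjusted p = 0.0138). The difference was -0.48 in odd-numbered and -0.28 in even-numbered libraries.

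Ndufa9 (mm10 chr6:126821863-126849144), an accessory subunit at the junction of the Q module with the membrane arm, had 39.6, 43.4, 39.4 and 39.5 FPKM in iPHet 1 to 4 and 30.8, 35.1, 32.2 and 34.3 FPKM in iPKO 1 to 4. All iPKO libraries were lower, and iPHet 2 was the highest. Its fall of 0.28 on the log2 scale (SE 0.063, limma adjusted p = 0.021) was nearly equal in odd-numbered (-0.32) and even-numbered (-0.25) libraries. The adjusted p was 0.052 without iPHet 2, 0.0565 without iPKO 1 and 0.0562 without iPKO 3, and 0.0758 with median ratio scaling and 0.0543 with quantile normalization.

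The core subunits Ndufs3 and Ndufs8 of the Q module were not called. Ndufs3 had the highest log2 difference of all 48 members, 0.17 (limma adjusted p = 0.40). Its groups overlapped, and it lies across Kbtbd4 on the opposite strand. Ndufs8, an iron-sulfur subunit, had 44.3, 63.8, 46.2 and 62.1 FPKM in iPHet 1 to 4 and 44.3, 56.1, 52.7 and 56.0 FPKM in iPKO 1 to 4. In contrast to most members it was lower in the odd-numbered than in the even-numbered iPHet libraries.

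The membrane arm has many small accessory subunits, and 1 of the 19 measured, Ndufb7, fell, beside 9.53% of all tested genes. Ndufb7 (mm10 chr8:83566671-83571626), a subunit of the distal arm on the intermembrane side, had 27.6, 26.9, 29.2 and 31.3 FPKM in iPHet 1 to 4 and 16.9, 19.4, 21.0 and 22.3 FPKM in iPKO 1 to 4. The groups were apart in odd-numbered and even-numbered libraries alike. It fell by 0.51 on the log2 scale (SE 0.092, limma adjusted p = 0.00969), with -0.56 in odd-numbered and -0.46 in even-numbered libraries. The exact two-sided permutation p over 4 against 4 libraries was 0.0286 for Ndufb7, Ndufs6, Ndufs7 and Ndufa9, as for any gene with groups apart.

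Other membrane arm genes had large differences that the libraries did not share. Ndufa3, a small subunit with a single membrane helix, had 62.2, 28.3, 75.4 and 29.6 FPKM in iPHet 1 to 4 and 25.8, 30.9, 24.2 and 40.3 FPKM in iPKO 1 to 4. iPHet 1 and 3 stood above the other 6 libraries, which ran from 24.2 to 40.3 FPKM. Among the even-numbered libraries those of iPKO lay above those of iPHet, at a log2 difference of 0.28. Ndufc1, another small membrane subunit, had 37.7, 20.5, 36.2 and 13.5 FPKM in iPHet 1 to 4 and 16.2, 17.7, 13.6 and 16.6 FPKM in iPKO 1 to 4. Its log2 difference of -0.61 was as large as that of Ndufv3 and was not called (limma adjusted p = 0.211, and 0.0442 without iPHet 4). Ndufs5 of the membrane arm had 15.0, 7.67, 18.3 and 6.72 FPKM in iPHet 1 to 4 and 11.7, 14.3, 10.5 and 12.2 FPKM in iPKO 1 to 4, so iPKO lay between the odd-numbered and the even-numbered controls. Ndufb8 of the distal arm had 175 ± 21.1 FPKM in iPHet against 194 ± 5.89 FPKM in iPKO (both SD, n = 4), with a limma adjusted p of 0.263.

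**Figure D2:**
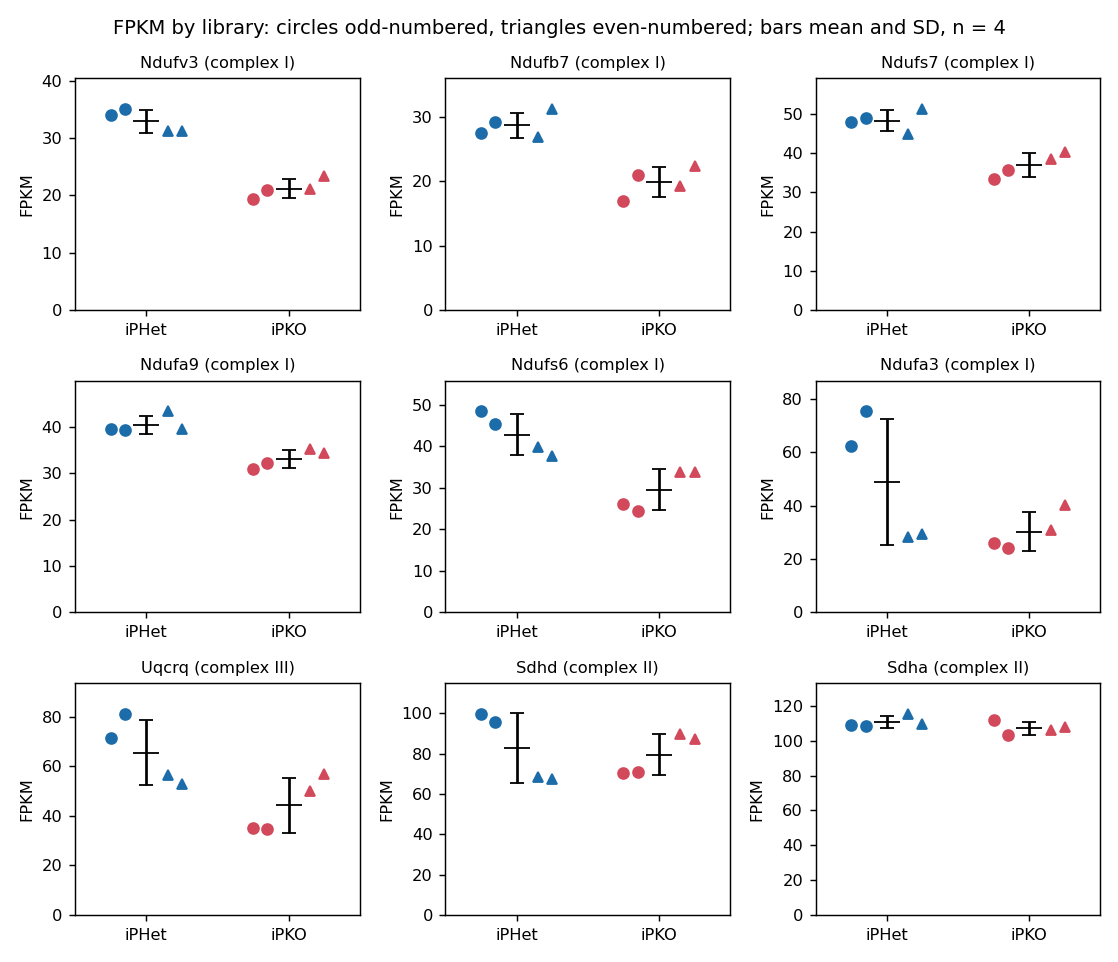
FPKM in each library for selected members, with iPHet and iPKO and odd-numbered and even-numbered libraries marked. In Ndufv3, Ndufb7 and Ndufs7 the 4 iPKO libraries lie below the 4 iPHet libraries. In Ndufa3 iPHet 1 and 3, at 62.2 and 75.4 FPKM, lie above all other libraries.

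The 5 calls depend on how the paired libraries are counted. With libraries 1 and 3, and 2 and 4, of each genotype averaged and an odd/even term, limma called none of the 48 members. Over all tested genes it called 0.0481%. In that fit 3 members, all in complex I, had an unadjusted limma p under 0.05, and the share of all tested genes under it is not given here. The adjusted p was then 0.216 for Ndufv3, 0.217 for Ndufb7, 0.283 for Ndufs7, 0.328 for Ndufa9 and 0.328 for Ndufs6. With the replicate number as a block 5 complex I genes were called, all lower, with Ndufv1 in place of Ndufs6, where 16.6% of all tested genes fell and 27.5% were called in either direction. With the correlation within pairs estimated (0.839) limma gave Ndufv3, Ndufb7, Ndufs7, Ndufa9 and Ndufs6 adjusted p-values of 0.113, 0.464, 0.381, 0.383 and 0.239. In the odd-numbered libraries alone the limma adjusted p of the 5 was 0.0057 to 0.0332, and in the even-numbered alone 0.0173 to 0.073, with Ndufs7 the highest. In the odd-numbered libraries alone 33 members were called lower and none higher, against 25.7% and 16.9% of all tested genes. In the even-numbered alone 5 were called lower and 13 higher, against 20.4% and 16.3%.

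Complex II had no called member. Sdha, the flavoprotein that oxidises succinate, was the steadiest of the 4, with 109, 116, 109 and 110 FPKM in iPHet 1 to 4 and 112, 106, 103 and 108 FPKM in iPKO 1 to 4. The groups overlapped, and the 95% interval of its log2 difference ran from -0.17 to 0.08 (limma adjusted p = 0.597). Sdhb, the iron-sulfur subunit, had 80.0 ± 6.32 FPKM in iPHet against 80.6 ± 8.04 FPKM in iPKO (both SD, n = 4), with an interval of -0.20 to 0.22 (limma adjusted p = 0.956). The membrane anchors, which hold the haem, varied more. Sdhc had 32.0, 25.6, 34.1 and 26.6 FPKM in iPHet 1 to 4 and 19.2, 25.8, 20.6 and 31.2 FPKM in iPKO 1 to 4 (limma adjusted p = 0.251). Sdhd had 99.8, 68.2, 95.5 and 67.2 FPKM in iPHet 1 to 4 and 70.3, 89.6, 70.8 and 87.0 FPKM in iPKO 1 to 4 (limma adjusted p = 0.882). In Sdhd the high libraries were odd-numbered in iPHet and even-numbered in iPKO, so the genotype means of 82.7 and 79.4 FPKM hide differences of opposite sign.

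Complex III had no called member either. The core proteins Uqcrc1 and Uqcrc2 and the iron-sulfur (Rieske) protein Uqcrfs1 form its larger part on the matrix side and the electron path. Uqcrc1 had 136, 133, 136 and 134 FPKM in iPHet 1 to 4 and 122, 125, 124 and 127 FPKM in iPKO 1 to 4. The groups were apart in every library, the only such case in complexes II and III, at a log2 difference of -0.11 (95% interval -0.22 to -0.01, limma adjusted p = 0.14). Over the 48 members 8 had such separate groups, all lower in iPKO, while 15.0% of all tested genes were lower in this way and 25.1% were apart in either direction. Uqcrc2 had a log2 difference of -0.14 (95% interval -0.30 to 0.02, limma adjusted p = 0.215) and Uqcrfs1 one of 0.00 (95% interval -0.32 to 0.32, limma adjusted p = 0.998).

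Among the 5 small subunits of complex III, Uqcrq, part of the ubiquinone-binding side, had the lowest log2 difference, -0.57 (limma adjusted p = 0.092). Its values were 71.2, 56.6, 81.3 and 52.9 FPKM in iPHet 1 to 4 and 34.9, 50.2, 34.8 and 57.0 FPKM in iPKO 1 to 4. The even-numbered libraries of both genotypes overlapped. Uqcr11 (-0.23, limma adjusted p = 0.269), the hinge protein gene Uqcrh (-0.20, limma adjusted p = 0.411), Uqcr10 (-0.10, limma adjusted p = 0.733) and Uqcrb (-0.04, limma adjusted p = 0.894) had smaller log2 differences with overlapping groups. Uqcrh has 2 annotated pseudogenes that could take its reads, and Uqcrb shares its locus with Gm10767.

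Read apart, the odd-numbered and even-numbered libraries gave opposite pictures for most members. In the odd-numbered libraries 46 of 48 members were lower in iPKO, all but Ndufs1 (0.01) and Ndufs8 (0.09), and the median log2 difference was -0.41 in complex I, -0.32 in complex II and -0.41 in complex III, beside -0.05 over all tested genes. In the even-numbered libraries 35 of 48 were higher in iPKO, and the medians were 0.08, 0.16 and 0.10, beside -0.02 over all tested genes. In all, 34 members were lower in the odd-numbered and higher in the even-numbered libraries (26, 3 and 5 in complexes I, II and III), and 19.0% of all tested genes were. Without overlap, 43 members were lower in the odd-numbered libraries (44.5% of all tested genes) and 25 higher in the even-numbered (34.0%), and both held for 23 (9.41%). The pattern was common to the 3 complexes, and a difference between complexes was not tested.

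**Figure D3:**
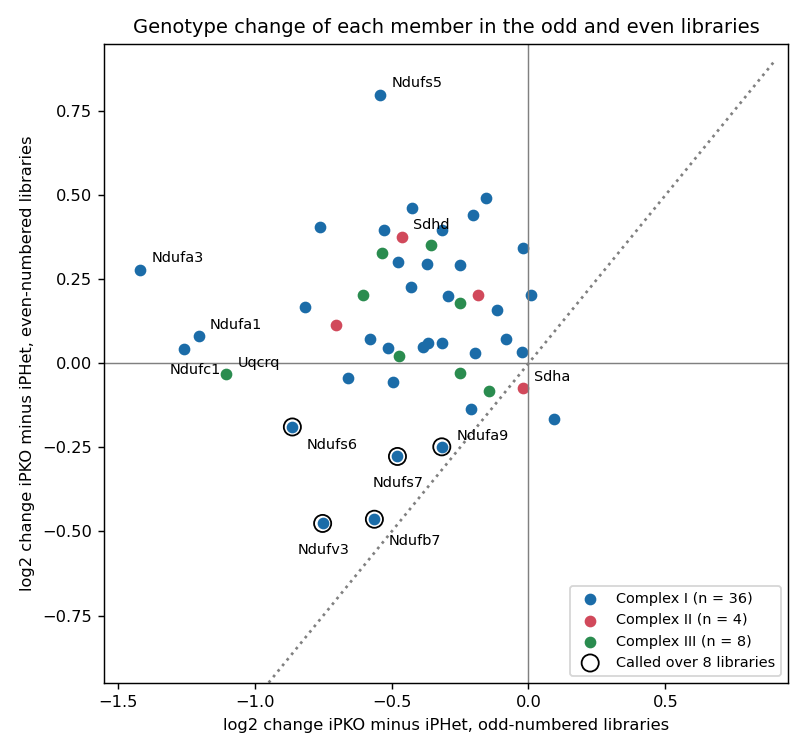
Log2 difference (iPKO minus iPHet) of each member in the even-numbered libraries (y axis) against that in the odd-numbered libraries (x axis), coloured by complex. Of the 48 points, 34 lie left of 0 and above 0, and Ndufv3, Ndufb7, Ndufs7 and Ndufa9 lie below 0 on both axes.

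The summed levels show the size of this. Complex I summed to 2309, 1840, 2299 and 1859 FPKM in iPHet 1 to 4 and to 1772, 2063, 1783 and 2052 FPKM in iPKO 1 to 4. The iPKO sum was 22.8% lower in odd-numbered and 11.2% higher in even-numbered libraries. Complex II summed to 323, 281, 325 and 283 FPKM in iPHet 1 to 4 and to 273, 306, 272 and 315 FPKM in iPKO 1 to 4, which is 16.0% lower and 10.2% higher. Complex III summed to 1000, 806, 1020 and 838 FPKM in iPHet 1 to 4 and to 733, 874, 773 and 879 FPKM in iPKO 1 to 4, which is 25.5% lower and 6.58% higher. In each complex iPHet 1 and 3 were the highest libraries, iPKO 1 and 3 the lowest, and the even-numbered libraries of both genotypes lay between. A high library in one genotype thus had the same kind of number as a low library in the other.

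The difference between the odd-numbered and even-numbered contrasts was tested as an interaction across all genes. It was called by limma in 32 of the 48 members (24, 3 and 5 in complexes I, II and III), 66.7%, and in 28.5% of all tested genes. All 32 were more negative in the odd-numbered libraries, as were 15.6% of all tested genes. These p-values rest on the spread within pairs of libraries that may be technical repeats. The largest was in Ndufa3, -1.70 on the log2 scale (limma adjusted p = 0.00265), followed by Ndufs5 (-1.34, limma adjusted p = 0.0036) and Ndufc1 (-1.30, limma adjusted p = 0.0141). In the even-numbered libraries the difference of Ndufs5 was 0.80, the highest of the 48 members.

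Within complex I the counts were highest on the membrane side. All 9 members of the membrane arm near the Q module had a called interaction, with medians of -0.54 in odd-numbered and 0.23 in even-numbered libraries. In the distal arm 7 of 10 did, with medians of -0.40 and 0.23. In the N module the count was 5 of 9 and in the Q module 2 of 7, with medians of -0.29 and 0.03 and of -0.32 and -0.06. In this order the shares were 100%, 70%, 55.6% and 28.6%, beside 28.5% of all tested genes. The median transcripts were 599, 747.5, 838 and 980 bases in the same order. Of the 7 core subunits, whose median transcript was 1312 bases, 2 had a called interaction, Ndufs3 and Ndufv2. In complex II it was called in Sdhb, Sdhc and Sdhd and not in Sdha. In complex III it was called in Uqcrfs1 and 4 of the 5 small subunits, and not in Uqcrc1, Uqcrc2 or Uqcr11. The difference between these groups of subunits, and the part of transcript length in it, was not tested.

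Within each genotype the odd-numbered and even-numbered libraries also stood apart. In iPHet the odd-numbered libraries were above the even-numbered without overlap in 37 of the 48 members, and 44.7% of all tested genes did so. In iPKO they were below without overlap in 39 members and above in none, against 33.7% of all tested genes that were below. Both held in 31 members, 22 of complex I, 3 of complex II and 6 of complex III, and in 9.48% of all tested genes. The median absolute log2 difference over the members was 0.169 to 0.393 between genotypes at the same kind of number and 0.14 to 0.215 between genotypes at different kinds. Over all tested genes these ranges were 0.219 to 0.234 and 0.258 to 0.281. The ranges of the members overlapped, while those of all tested genes did not.

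A marker of another cell type, chosen after its values were seen, also differed by kind of number. Krt18, a keratin of simple epithelia that stands in the trophoblast list, had 29.2, 6.91, 29.9 and 7.96 FPKM in iPHet 1 to 4 and 31.4, 6.73, 33.2 and 6.83 FPKM in iPKO 1 to 4. It was high in the odd-numbered libraries of both genotypes, whereas most members were high there in iPHet and low in iPKO. The 6 trophoblast markers summed to 13.98 to 41.1 FPKM in iPHet and 18.1 to 51.8 FPKM in iPKO, and 2 of the 6 were under 1 FPKM in every library. Their part in the odd/even pattern was not tested.

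Transcript length moved with the odd/even pattern, over the members and over all genes. The members are short, with a median transcript of 810 bases, 772.5 in complex I, 1612 in complex II and 519.5 in complex III, and 30 of 48 are under 1000 bases. Among protein-coding genes up to 500 bases, the median log2 difference was -0.54 in odd-numbered and 0.17 in even-numbered libraries, and 47.3% had a called interaction. Between 500 and 700 bases these were -0.43, 0.09 and 58.3%. Above 4000 bases they were 0.03, -0.08 and 26.1%. The members' medians in the first of these bins were -0.53 and 0.21 and in the second -0.43 and 0.18, so the odd-numbered medians lay near those of all protein-coding genes of that length. From 700 to 1000 bases the 10 members had -0.40 and 0.11, where all protein-coding genes had -0.25 and 0.03. From 1000 to 1500 bases the 8 members had -0.32 and 0.27, where all protein-coding genes had -0.17 and 0.01. Across the 48 members, log2 transcript length and the odd-numbered difference had Pearson r 0.469 (Spearman rho 0.488). For the even-numbered difference r was -0.135. These are correlations across genes that share the same libraries, given as a description. The part of transcript length in the odd/even pattern was not tested.

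**Figure D4:**
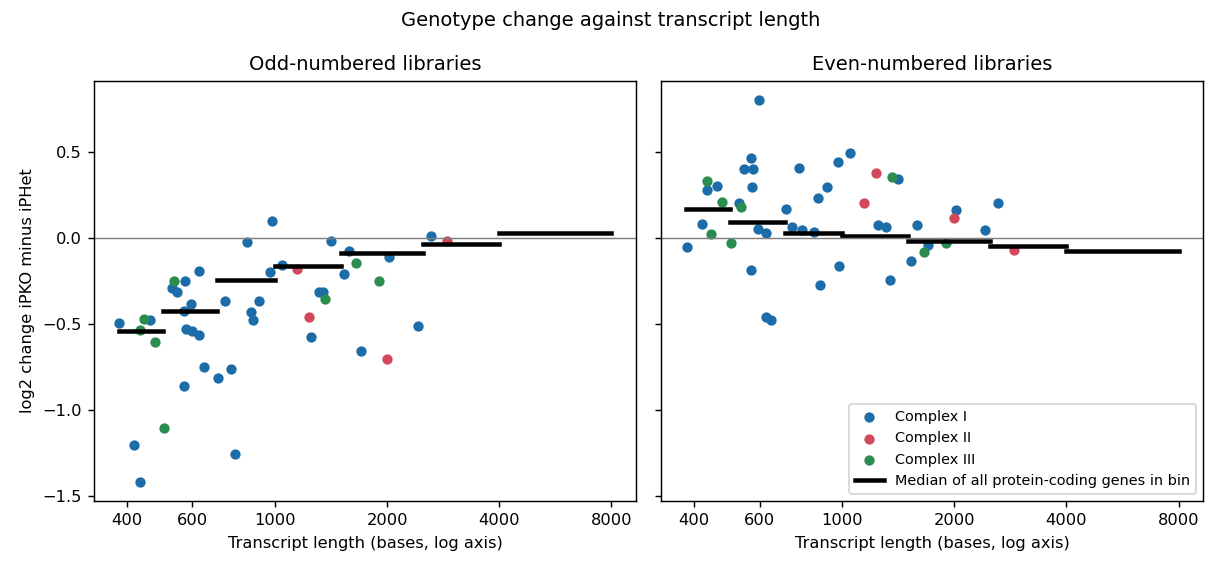
Log2 difference (iPKO minus iPHet) against transcript length in bases, on a log axis, for the odd-numbered and the even-numbered libraries, with the 48 members as points and the medians of all tested protein-coding genes in each length bin as lines. In the odd-numbered libraries the line rises from -0.54 in the shortest bin to 0.03 in the longest, and in the even-numbered libraries it falls from 0.17 to -0.08.

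The ribosomal protein genes, which are also short, had medians of the same signs as the members. The 76 cytosolic ribosomal protein genes had medians of -0.43 in odd-numbered and 0.38 in even-numbered libraries. A called interaction was found in 70 of them, 92.1%, beside 28.5% of all tested genes. For the 75 mitochondrial ribosomal protein genes the medians were -0.35 and 0.05, and 44 (58.7%) had a called interaction. Over 8 libraries 12 fell and none rose, beside 9.53% and 6.3% of all tested genes. These 75 were not counted with averaged pairs or with an estimated correlation within pairs, which called 6 and 52 genes in all.

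The partners of the members in the same complexes were read from the same fit. Of 3 tested genes of complexes I to III and cytochrome c outside the name pattern, 2 fell, beside 9.53% of all tested genes. Cyc1, the cytochrome c1 of complex III, had 95.3, 94.5, 96.3 and 96.3 FPKM in iPHet 1 to 4 and 72.0, 78.5, 74.3 and 90.8 FPKM in iPKO 1 to 4 (limma adjusted p = 0.044). Cycs, cytochrome c itself, had 18.9 ± 2.18 FPKM in iPHet against 13.5 ± 2.32 FPKM in iPKO (both SD, n = 4), with a limma adjusted p of 0.047, and of 0.0774 with the replicate number as a block. Neither call held when any single library other than iPKO 4 was left out, with a limma adjusted p of 0.0834 to 0.104 for Cyc1 and 0.0543 to 0.111 for Cycs. Both were also lost with median ratio scaling (0.11 and 0.0686), quantile normalization (0.0964 and 0.073) and no filter on low values (0.0552 and 0.0719).

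Assembly factors moved in both directions. Of 16 tested for complex I, Ndufaf2, Ndufaf3 and Ndufaf5 fell and Ndufaf6 rose. Over all tested genes 9.53% fell and 6.3% rose. Ndufaf3, which acts early in Q module assembly, went from 5.14 ± 0.66 to 2.90 ± 0.192 FPKM (SD, n = 4 each), a fall of 0.65 on the log2 scale (limma adjusted p = 0.00409). Ndufaf2, a late-acting factor of the N module, went from 8.46 ± 1.31 to 5.40 ± 0.437 FPKM (SD, n = 4 each, with a limma adjusted p = 0.0129). Ndufaf6 rose from 37.1 ± 0.676 to 47.9 ± 4.60 FPKM (SD, n = 4 each, with a limma adjusted p = 0.0159). Of 2 tested for complex II, Sdhaf2, which helps to attach the flavin to Sdha, fell by 0.44 on the log2 scale (limma adjusted p = 0.00478), with 6.83, 6.92, 6.76 and 6.74 FPKM in iPHet 1 to 4 and 5.12, 4.31, 4.95 and 4.67 FPKM in iPKO 1 to 4. Sdha, its target, was not called.

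Of 5 assembly factors tested for complex III, 2 fell and 1 rose, beside 9.53% and 6.3% of all tested genes. Uqcc1, needed for cytochrome b, had 29.6, 26.5, 26.8 and 29.1 FPKM in iPHet 1 to 4 and 19.1, 20.8, 20.2 and 19.2 FPKM in iPKO 1 to 4, and fell by 0.48 on the log2 scale (limma adjusted p = 0.00262). Bcs1l, which inserts the Rieske protein, fell by 0.37 (limma adjusted p = 0.0226, and 0.058 without iPHet 1, 0.0613 without iPHet 3, 0.0542 without iPKO 1, 0.0601 without iPKO 2 and 0.06 without iPKO 4). Ttc19, which clears Rieske fragments, rose from 7.18 ± 1.05 to 12.2 ± 0.325 FPKM (SD, n = 4 each), 0.70 on the log2 scale (limma adjusted p = 0.00277). Ttc19 lies across Ncor1, a highly expressed gene on the opposite strand, so reads of both cannot be told apart without strand. The calls of Ndufaf2, Ndufaf3, Ndufaf6, Sdhaf2, Uqcc1 and Ttc19 held when any single library was left out, as did those of Ndufv3, Ndufb7 and Ndufs7.

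The mitochondrially encoded subunits were lower in iPKO in both kinds of library on the median. Of 13, 3 fell (mt-Nd1, mt-Nd2 and mt-Nd4l, all subunits of the complex I membrane arm) and none rose. Over all tested genes 9.53% fell and 6.3% rose. The median log2 difference over the 13 was -0.36 in odd-numbered and -0.52 in even-numbered libraries, where the nuclear members had -0.41 and 0.10. An interaction was called in 10 of the 13 (76.9%, beside 28.5% of all tested genes). Of these, 4 were more negative in the odd-numbered libraries and the others more positive there. Among the 13, 11 were lower in iPKO in the odd-numbered libraries, and 2 were higher in the even-numbered. mt-Nd2 had 730, 589, 717 and 584 FPKM in iPHet 1 to 4 and 458, 292, 446 and 296 FPKM in iPKO 1 to 4, with all iPKO libraries lower, and fell by 0.84 on the log2 scale (limma adjusted p = 0.0177). mt-Nd4l fell by 0.67 (limma adjusted p = 0.00857), and it overlaps mt-Nd4 on the same strand. mt-Nd1 fell by 0.57 (limma adjusted p = 0.0289, and 0.0735 without iPHet 1, 0.072 without iPHet 3, 0.0638 without iPHet 4, 0.0721 without iPKO 2, 0.0681 without iPKO 4, 0.0569 with quantile normalization and 0.122 with no filter on low values).

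Of the remaining chain, 1 of 11 complex IV genes fell, Cox6b2, an isoform typical of testis, from 48.6 ± 18.5 FPKM (SD, n = 4) to 16.3 ± 3.79 FPKM (SD, n = 4), at a limma adjusted p of 0.0127. The median log2 difference of complex IV was -0.69 in odd-numbered and 0.17 in even-numbered libraries. An interaction was called in 8 of 11 (72.7%), beside 28.5% of all tested genes. Of 17 complex V genes, 1 fell, Atp5h (limma adjusted p = 0.0379), while 9.53% of all tested genes fell. Its adjusted p was 0.0527 without iPHet 1, 0.0886 without iPHet 2, 0.0517 without iPHet 3, 0.094 without iPHet 4, 0.0922 without iPKO 1 and 0.0874 without iPKO 3, and 0.0864 with median ratio scaling, 0.0709 with quantile normalization and 0.0573 with no filter on low values. Complex V had medians of -0.39 and 0.08.

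Of 14 citric acid cycle enzymes, 4 fell, Idh3g and Fh1 among them, and none rose, beside 9.53% and 6.3% of all tested genes. Idh3g, a subunit of isocitrate dehydrogenase, fell by 0.51 on the log2 scale (limma adjusted p = 0.00282). Fh1, fumarase, fell by 0.24 (limma adjusted p = 0.0396) and lost its call on leaving out any 1 library of iPHet 1, iPHet 2, iPHet 3, iPKO 2, iPKO 3 and iPKO 4 (0.0805 to 0.0961), and with median ratio scaling (0.0775) or quantile normalization (0.0803). Of 11 regulators of respiratory genes, Nrf1, the factor behind the GCATGCGC core, fell from 51.5 ± 2.09 FPKM (SD, n = 4) to 36.8 ± 5.45 FPKM (SD, n = 4), at a limma adjusted p of 0.0174. None of the 6 members with that core was called, beside 15.8% of all tested genes called in either direction. A link between Nrf1 and these members was not tested. Of 11 genes that follow mitochondrial mass, none was called, and their medians were -0.22 and 0.05. Of the called genes given above with their values, none was called with the pairs averaged, and Prmt5 alone was called with the correlation within pairs estimated.

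**Figure D5:**
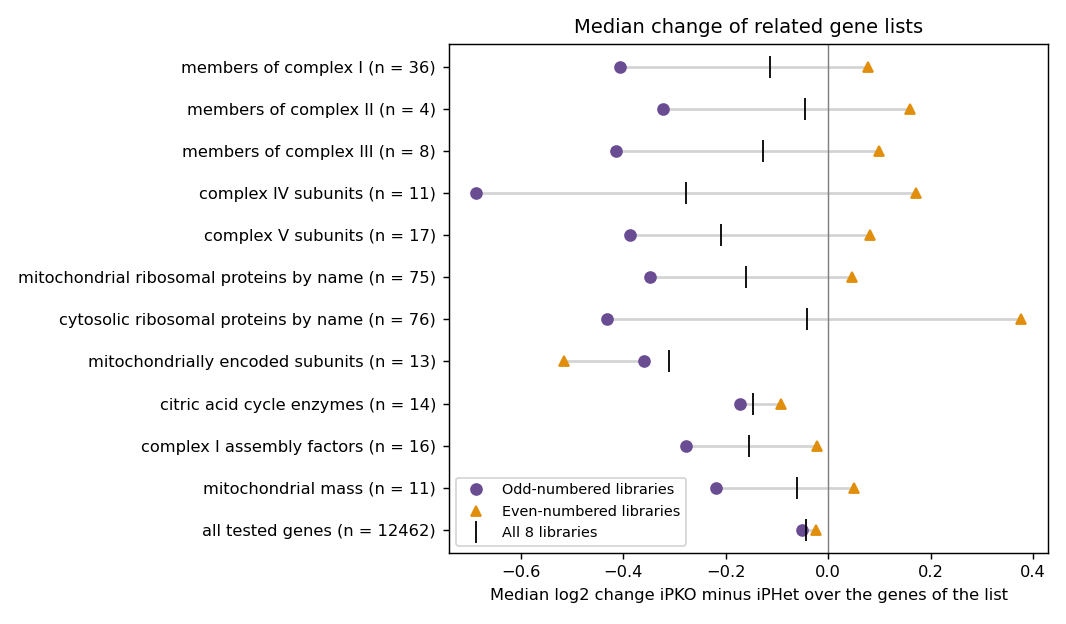
Median log2 difference (iPKO minus iPHet) of each gene list, with odd-numbered and even-numbered libraries shown apart, beside the median of all tested genes. The 3 complexes, complexes IV and V and the ribosomal proteins lie below 0 in the odd-numbered and above 0 in the even-numbered libraries, and the mitochondrially encoded subunits lie at -0.36 and -0.52.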

How the data were processed

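RNA of 4 iPHet and 4 iPKO libraries was sequenced as paired reads of 100 bases after an Illumina TruSeq RNA preparation, per the labels' protocols. The authors deposited FPKM values by gene, 1 file a library, each with its confidence bounds and status, per the file headers. Trimming with Trimmomatic and the build mm10 are given by the submitters' processing notes. Aligner, quantification program, strand and any scaling between libraries: not given in the sources used here.

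Each file held 39013 rows for 38991 identifiers. The rows of 19 identifiers were summed. Gene types and transcript lengths came from GENCODE vM21 (96.0% of identifiers matched, and 99.72% of those overlapped the annotated locus). The design foresaw limma on log2 values for FPKM and a count test for counts, and the files held FPKM. limma 3.58.1 with an intensity trend (R 4.3.3, with data.table at version 1.17.8) was fitted to log2(FPKM + 1) of the 12462 genes averaging 1 FPKM or more in iPHet or in iPKO, and Benjamini-Hochberg adjusted p-values under 0.05 over all of them were called. Fold changes are on that scale and understate the change of low genes. The script was tested on simulated data. The text writes that a gene rose or fell where it was called, and groups did not overlap where all libraries of one genotype lay below all of the other. The interaction fit had genotype, odd/even number and their product.

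The members and gene lists were chosen with earlier results of these data known, and the contrast of odd-numbered and even-numbered libraries came from them. The named genes were all members of complexes II and III, and of complex I the called members, the 3 highest and 3 lowest log2 changes, the 3 largest interactions, the highest and lowest level and the 7 core subunits. Up to 3 called genes of each other list were added. Ndufs4, Ndufa6 and Ndufa8, named for their motifs, and Ndufaf5, Krt18 and Eomes were chosen after their values were seen. Values of 1 member and of 1 citric acid cycle enzyme are counted but not reported here. Lists held assembly factors, complexes IV and V, mitochondrially encoded subunits, citric acid cycle enzymes, regulators, mitochondrial mass and cell type markers. Of the markers, 1 of 8 pluripotency genes was called lower (Sox2, limma adjusted p = 0.00539), and none of the 1 feeder, 3 trophoblast and 1 primitive endoderm genes above the minimum was called over 8 libraries. With the replicate block the trophoblast gene Eomes was called higher (limma adjusted p = 0.00332, against 0.0567 without it), at 7.51 ± 1.77 FPKM in iPHet against 12.2 ± 2.75 FPKM in iPKO (both SD, n = 4). Trophoblast markers summed to 13.98 to 41.1 FPKM in iPHet and 18.1 to 51.8 FPKM in iPKO, mostly Krt18, and primitive endoderm markers to 5.11 to 5.78 and 3.63 to 5.92 FPKM.

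For the shared numbers 1 to 4, the deviations of an iPHet and an iPKO library from their genotype means had correlations of 0.104, 0.162, 0.204 and 0.107 over all tested genes. All exceed 0.1, so the numbers were taken to pair the libraries, which the labels do not state. Libraries with other numbers of the same kind, odd or even, correlated at 0.077 to 0.124, a range that holds the values of numbers 1 and 4. The correlations therefore do not establish the pairing, and the replicate block rests on it as an assumption. Over the members alone the same numbers correlated at 0.243, -0.201, -0.411 and 0.0302.

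Promoters came from RefSeq on GRCm38.p6, where 40 members had an entry. The RefSeq start can differ from the gene's first base in the deposited values. The sequence of Ndufa2 was not used here. Alternatives were the replicate block, an odd/even term, averaged pairs, an estimated correlation within pairs, quantile and median ratio scaling, a pseudocount of 0.1, other minimum levels, protein-coding genes alone and leaving out each library. Odd-numbered and even-numbered libraries alone were added as fits after seeing the data.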

Additional observations from a re-analysis of the deposited data

Results flagged for a closer look

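Over the named genes, 98 groups of 4 libraries were checked for a value far from the other 3, and 2 had one, where chance gives about 1 in 20. Sdha had 115.5 FPKM and Ndufa9 43.41 FPKM in iPHet 2, each the highest of its group.

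In 17 named members the change in the odd-numbered libraries differed from that in the even-numbered ones by the interaction test. All 17 were more negative in the odd-numbered libraries on the log2 scale. Over all tested genes 28.5% had a called interaction, and 15.6% were more negative in this way. Ndufa3, Ndufs5 and Ndufc1 had been named partly for the size of this difference. In complex I the difference was -1.7 in Ndufa3, -1.34 in Ndufs5, -1.3 in Ndufc1, -0.781 in Ndufa4, -0.713 in Ndufa11, -0.674 in Ndufs6, -0.649 in Ndufs3, -0.375 in Ndufv2 and -0.364 in Ndufb8. In complex II it was -0.839 in Sdhd, -0.82 in Sdhc and -0.386 in Sdhb. In complex III it was -1.07 in Uqcrq, -0.861 in Uqcr10, -0.811 in Uqcrh, -0.708 in Uqcrfs1 and -0.43 in Uqcrb. Prmt5 had no called interaction (limma adjusted p = 0.101), with -2.06 from the odd-numbered libraries and -2.20 from the even-numbered ones.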

How the results depend on the processing

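The count of called members was 5, 0 and 0 in complexes I, II and III. It was 0 in complex I, as in the others, with averaged pairs and with an estimated correlation within pairs, which left 6 and 52 called genes in all. With an odd/even term complex I had 6 calls, with Ndufv1 (limma adjusted p = 0.048) added, complex III had 1, Uqcrc1 (0.0277), and 4729 genes were called in all. With the replicate block complex I kept a count of 5, with 3427 genes called in all. The block ended the calls of Ndufs6 and Cycs, added that of Ndufv1, and changed no other call among the named genes. In the odd-numbered libraries alone the counts were 24, 2 and 7, all lower, with medians of -0.406, -0.322 and -0.414 and 5316 genes in all. In the even-numbered libraries alone they were 16 (11 higher), 1 and 1, with medians of 0.0778, 0.159 and 0.0999 and 4581 genes in all. There Sdhd was 0.377, Uqcrfs1 0.353 and Ndufa4 0.303 on the log2 scale, each with the opposite sign to the fit of 8 libraries, and so was Ndufs5 in the odd-numbered libraries alone at -0.541. The cause of these differences was not tested.

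Leaving out single libraries gave 3 to 6 calls in complex I, 3 of them without iPHet 2, iPKO 1 or iPKO 3, and 0 to 0 in complexes II and III. The medians ran from -0.183 to -0.0594, -0.0917 to -0.00928 and -0.185 to -0.106, the genes called in all from 1264 (without iPHet 4; 1309 without iPKO 1) to 1416, and the members with a called interaction from 25 to 30, against 32 with all libraries. Scalings, pseudocount, minimum level and protein-coding genes alone left the counts of the complexes within 1.5 times, while a scaling or the missing filter ended the calls of Ndufa9, Cyc1, Cycs, Atp5h, Fh1 and mt-Nd1. The number of libraries and the unknown depth limit the precision.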
